A study of Mus musculus with 7 samples.

Results

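A set of 10 genes encodes proteins that R406 is known to bind besides its main target, the kinase Syk, and they are described here across reprogramming fibroblasts given DMSO or R406. They are Flt3, Ret, Lck, Lyn, Src, Jak1, Jak2, Jak3, Kdr and Adora3, chosen by name as known targets of the compound. All 10 were found among the 53715 genes of the expression table. R406 is the active form of the drug fostamatinib and competes with ATP in the kinase pocket of Syk. At higher exposure it also binds other tyrosine kinases, and it blocks the adenosine A3 receptor, which is not a kinase.

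RNA-seq covered 4 libraries of OG2 mouse embryonic fibroblasts (strain CBA-Tg(Pou5f1-EGFP)2Mnn/J, a green fluorescent reporter under Pou5f1) taken at embryonic day 13.5. Cells of passage 3 received DMSO, the solvent, in 2 libraries and R406 in 2 libraries. All of them shared Stage 1 medium, under a protocol of 12 days, in which DMEM was supplied with KSR, FBS, NEAA, P/S, β-ME and bFGF and with the small molecules CHIR99021, 616452, EPZ004777, AM580, Forskolin, Parnate, VPA and vitamin C, so neither group represents untreated fibroblasts. Nfatc1 binding was mapped by CUT&Tag in 1 DMSO and 1 R406 library after 4 days of treatment. The fibroblasts used for it, also of embryonic day 13.5, carried lentiviral rtTA and doxycycline-driven Flag-Nfatc1, so the factor was introduced and not the cells' own. A blank library without primary antibody was not analysed here, and no source used here gives the R406 concentration or the day of RNA harvest.

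Receptor tyrosine kinases such as Flt3, Ret and Kdr bind a ligand outside the cell and phosphorylate tyrosines inside it. Src, Lyn and Lck belong to the Src family, which passes signals from receptors and adhesion sites and is held inactive by the kinase Csk. Jak1, Jak2 and Jak3 sit on the tails of cytokine receptors and phosphorylate STAT factors, which then enter the nucleus. The RNA level of a target shows whether the cells could make it, and does not show whether R406 occupied or inhibited the protein.

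Expression was given in TPM, a measure of transcript abundance with a fixed total per library, which is scaled by transcript length, so levels of different genes can be set side by side, but which keeps no read depth. The number of genes at 1 TPM or more ranged from 13537 to 14045. The share of TPM in ribosomal protein genes was 14.4% and 16.2% with DMSO and 19.8% and 23.4% with R406, and that in mitochondrial genes was 10.5% and 14.2% against 6.72% and 10.3%. Fibroblast genes summed to 2811 and 3180 TPM with DMSO and to 3427 and 4570 TPM with R406, with 2 of 9 called, both higher (Col3a1 and Postn), and Thy1 and Pdgfra lower without overlap or a call. Extraembryonic endoderm genes summed to 2086 and 2772 TPM with DMSO and to 2315 and 3795 TPM with R406, and 5 of 9 rose (Gata4, Sox17, Foxa2, Sall4 and Lama1). Most of that sum was Sparc, at 1970 and 2641 TPM with DMSO and 2028 and 3291 TPM with R406, which overlapped without a call. Macrophage genes (13 listed) summed to 237 and 278 TPM with DMSO and to 7.52 and 7.57 TPM with R406, and all 10 tested ones fell. These calls are at a limma adjusted p under 0.05, which 4.26% of all genes tested passed higher and 4.05% lower. No label states whether replicates were separate cultures. The p-values therefore reflect just the spread among these libraries, which may be technical.

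JAK start-site sequences are shown because Nfatc1 peaks reached that of Jak1 in both CUT&Tag libraries, Jak2 with DMSO alone and Jak3 in neither. Each is the 250 bases before the start site, read 5′ to 3′ from RefSeq's GRCm38.p6, with any GGAAA, the core that NFAT proteins recognise, or its reverse complement TTTCC in capitals. Jak1 lies on the minus strand (chr4:101265224-101265473), and Jak2 (chr19:29251553-29251802) and Jak3 (chr8:71676133-71676382) on the plus strand.
Jak1: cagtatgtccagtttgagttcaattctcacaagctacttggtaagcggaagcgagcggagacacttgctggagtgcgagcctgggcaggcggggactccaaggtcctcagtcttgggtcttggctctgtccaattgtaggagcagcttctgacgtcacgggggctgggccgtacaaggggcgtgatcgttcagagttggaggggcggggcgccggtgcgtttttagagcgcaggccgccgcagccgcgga
Jak2: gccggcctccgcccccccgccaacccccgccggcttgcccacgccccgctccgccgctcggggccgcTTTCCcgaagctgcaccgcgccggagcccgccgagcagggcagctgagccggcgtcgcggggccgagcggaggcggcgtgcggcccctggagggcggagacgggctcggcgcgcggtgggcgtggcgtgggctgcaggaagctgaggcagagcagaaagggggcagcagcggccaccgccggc
Jak3: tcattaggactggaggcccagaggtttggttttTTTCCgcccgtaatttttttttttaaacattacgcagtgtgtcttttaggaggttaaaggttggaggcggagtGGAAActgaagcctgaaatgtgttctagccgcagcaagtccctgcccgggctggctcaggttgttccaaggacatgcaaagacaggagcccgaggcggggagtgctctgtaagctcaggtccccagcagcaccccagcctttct
The core is absent from this Jak1 window, occurs 1 time for Jak2, at position −183 from the start site, and 2 times for Jak3. Of 21263 such windows of protein-coding genes, 54.6% held it on either strand and 20.7% held it at least 2 times, and a match describes the letters and not a binding site. Among the members 8 of 10 were in the promoter table.

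The 10 genes covered a wide range of RNA levels, and 3 of them stayed under 1 TPM in every library. Jak1 was the most abundant in every library, followed by Src. In the DMSO libraries the order by mean TPM was Jak1 (62.7), Src (29.6), Jak2 (12.6), Kdr (8.46), Jak3 (3.73), Lyn (1.94), Lck (1.07), Flt3 (0.174), Ret (0.0647) and Adora3 (0.0183). Among neighbours in that order only Flt3 and Ret overlapped between their 2 DMSO values. In the R406 libraries Jak2, Kdr and Jak3 overlapped one another, and so did Lck and Lyn. Averaged across all 4 libraries, 7 members reached 1 TPM and were tested. Flt3, Ret and Adora3 did not reach that level.

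**Figure D1:**
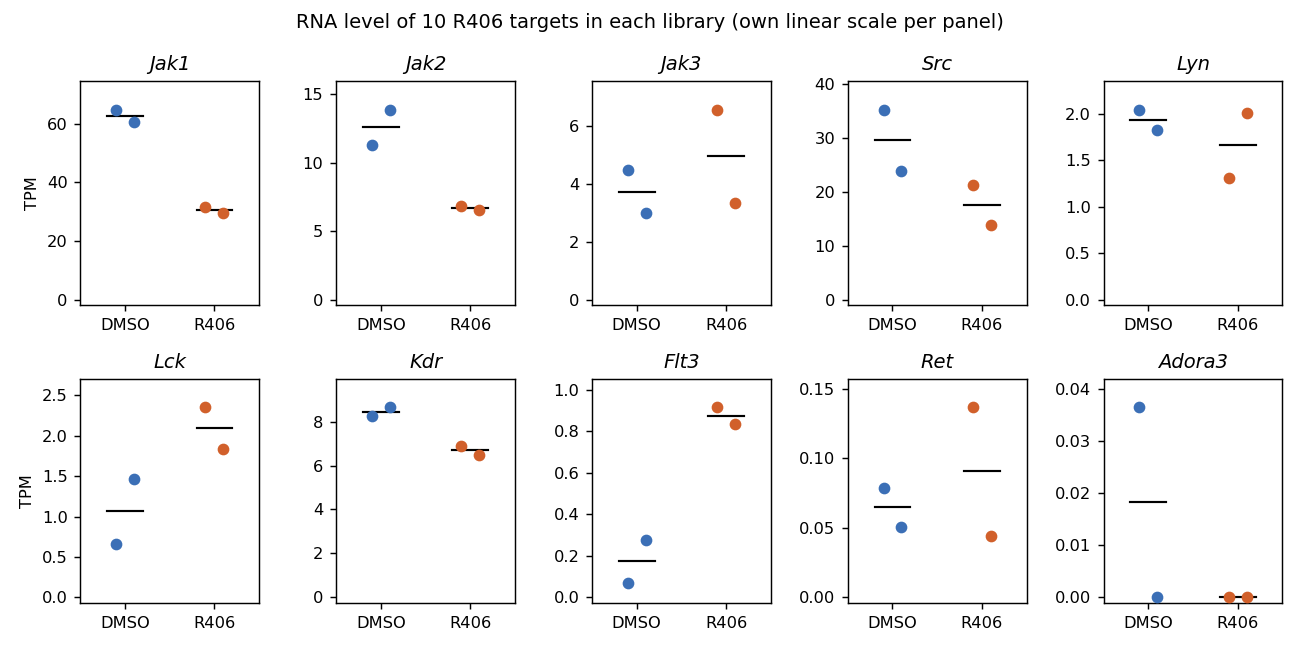
TPM of each of the 10 target genes in the 2 DMSO and 2 R406 libraries (points), with the group mean as a line and a separate linear scale in each panel. Jak1, Jak2, Src and Kdr had both R406 points under both DMSO points, Lck and Flt3 lay higher, and Jak3, Lyn, Ret and Adora3 overlapped.

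Of the 7 tested members, 1 fell and 0 rose at a Benjamini-Hochberg adjusted p of 0.05 (limma on log2(TPM + 1)), where 8.31% of the 13929 genes tested passed, 4.05% lower and 4.26% higher. At an unadjusted p under 0.05 there were 2, both lower, against 26.8% of all genes tested in either direction and 14.5% lower. The R406 and DMSO libraries did not overlap in 5 of the 7, with 4 lower and 1 higher, where 56.1% of all genes tested did not overlap, 30.2% lower and 25.9% higher. The median log2 difference of the 7 was −0.30, beside −0.02 for all genes tested. Because 1 TPM is added before the logarithm, low genes changed by more than their log2 differences show.

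Jak1, the JAK shared by interferon receptors and the gp130 family of receptors, was the member that fell (ENSMUSG00000028530, chr4:101151974-101265282). It measured 64.9 and 60.5 TPM in the DMSO libraries and 31.7 and 29.6 TPM in the R406 libraries. The groups were far apart and the replicates of each lay close together. The mean went from 62.7 ± 3.07 to 30.7 ± 1.52 TPM (SD, n = 2 in each group, as for every mean that follows), a ratio of 0.489. The log2 difference was −1.01 (SE 0.18, 95% interval −1.47 to −0.55, limma adjusted p = 0.0381). Of all genes tested, 12.4% differed by more on the log2 scale. The call was lost without any 1 library, with limma adjusted p of 0.228 and 0.167 when DMSO replicate 1 or 2 was left out and 0.0705 and 0.0904 when R406 replicate 1 or 2 was, and 0.0751 with no filter on low genes, while the leave-out log2 differences lay between −1.06 and −0.96. The median log2 difference of all genes shifted to between −0.14 and 0.09 in those fits.

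Jak2, the kinase of single-chain receptors such as those for erythropoietin and growth hormone, was lower too without passing the test (ENSMUSG00000024789, chr19:29251803-29313095). Its values were 11.3 and 13.9 TPM with DMSO and 6.82 and 6.57 TPM with R406, and the groups did not overlap. The log2 difference was −0.82 (95% interval −1.33 to −0.31, limma adjusted p = 0.0743). Jak3, which pairs with the common cytokine receptor gamma chain and is known chiefly from lymphocytes (ENSMUSG00000031805, chr8:71676383-71690577), measured 4.47 and 2.99 TPM with DMSO and 6.57 and 3.35 TPM with R406. These groups overlapped, and the log2 difference of 0.30 had a 95% interval of −0.59 to 1.18 (limma adjusted p = 0.644). Without R406 replicate 1 its sign turned, to −0.10.

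Jak1 made up 75.7% and 74.5% of the summed TPM of the 4 JAK genes with DMSO and 60.5% and 66.4% with R406. That sum was 85.7 and 81.2 TPM with DMSO and 52.4 and 44.6 TPM with R406. Such shares within a library do not depend on how TPM was scaled. The Jak2 share overlapped between the groups, at 13.2% and 17.1% against 13.0% and 14.7%. The ratio of Jak1 to Jak3 was 14.5 and 20.3 with DMSO and 4.83 and 8.83 with R406. The ratio of Jak1 to Jak2 overlapped between groups, at 5.73 and 4.35 against 4.65 and 4.51. Tyk2, the fourth JAK and not a member, took 5.92% and 4.69% with DMSO and 13.9% and 11.4% with R406, although its own level did not pass the test (log2 0.39, limma adjusted p = 0.392). With 2 libraries against 2, an exact permutation test of a single ratio cannot pass 0.05, so none was made.

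**Figure D2:**
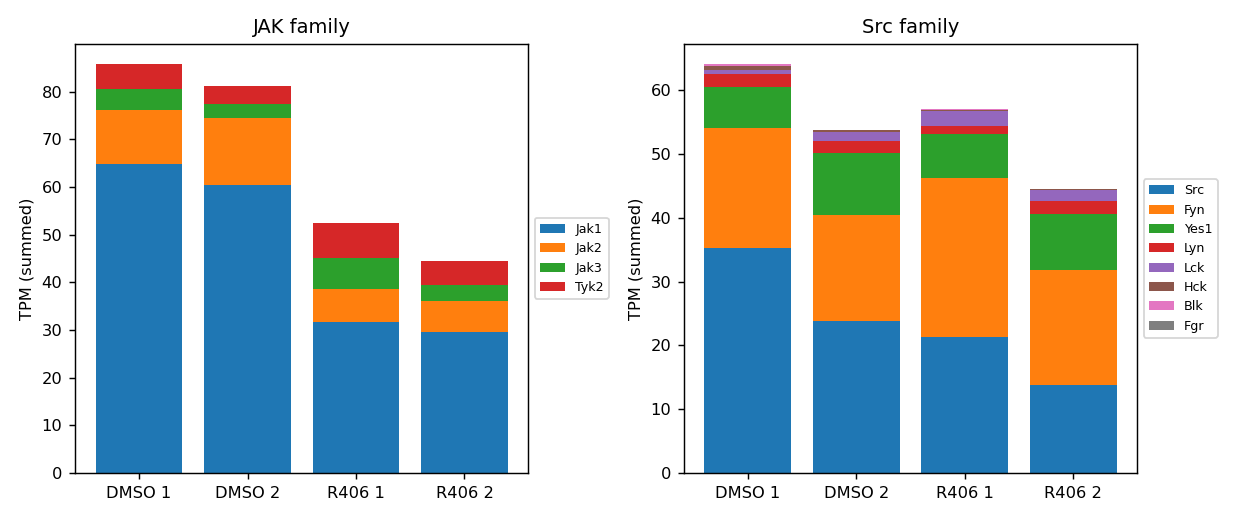
Summed TPM of the 4 JAK genes (left) and the 8 Src family genes (right) in each of the 4 libraries, stacked by gene from 0. The Jak1 and Src segments are shorter in both R406 libraries, while Fyn and Tyk2 keep or enlarge theirs.

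Src, the founding kinase of its family and active at cell adhesions (ENSMUSG00000027646, chr2:157423906-157471838), measured 35.3 and 23.8 TPM with DMSO and 21.3 and 13.8 TPM with R406. All R406 values lay under all DMSO values, but each group was wide. Replicate 1 was the higher library in both groups. The log2 difference was −0.72 (95% interval −1.52 to 0.08, limma adjusted p = 0.222). Leaving out 1 library gave −1.02 to −0.43. Src was 55.1% and 44.3% of the summed TPM of the 8 Src family genes with DMSO and 37.4% and 31.0% with R406. Relative to its inhibitor Csk, in the same library, Src stood at 0.981 and 0.987 with DMSO and at 0.644 and 0.693 with R406, a ratio in which replicates of a group lay close together. Fyn, named after its values were seen, was the other abundant member of the family, with 18.9 and 16.5 TPM against 25.0 and 17.9 TPM (log2 0.25, limma adjusted p = 0.560).

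Lyn, a Src family kinase of B cells and myeloid cells (ENSMUSG00000042228, chr4:3678068-3791612), measured 2.05 and 1.83 TPM with DMSO and 1.31 and 2.01 TPM with R406. The groups overlapped, and the log2 difference was −0.15 (95% interval −0.72 to 0.41, limma adjusted p = 0.711). It became 0.04 without R406 replicate 1. It is given beside the macrophage sums above, which were lower in both R406 libraries, and their part in the Lyn value was not tested. The macrophage genes Lyz2 and Tyrobp stood at 207 and 179 TPM and at 8.43 and 9.15 TPM with DMSO, and at 3.86 and 3.33 TPM and at 0.230 and 0 TPM with R406. In bulk libraries, fewer cells of a type and less RNA per cell cannot be told apart.

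Lck, the Src family kinase that starts T cell receptor signalling, was low in every library (ENSMUSG00000000409, chr4:129548344-129573641). It measured 0.665 and 1.47 TPM with DMSO and 2.35 and 1.83 TPM with R406, higher in both R406 libraries. The log2 difference was 0.61 (95% interval −0.08 to 1.29, limma adjusted p = 0.232). The T cell receptor genes Cd3d, Cd3e and Cd3g were listed at 0 in all 4 libraries, and the 10 T cell genes listed summed to 1.34 and 1.79 TPM with DMSO and 1.73 and 2.19 TPM with R406. Of the 10, 1 reached 1 TPM on average and did not pass the test.

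**Figure D3:**
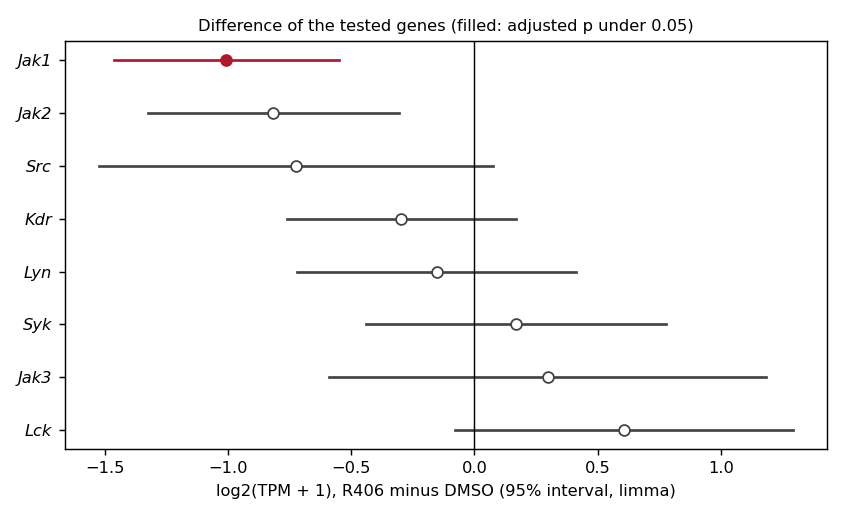
Difference in log2(TPM + 1) between R406 and DMSO for the 7 tested targets and Syk, with 95% intervals from limma and a filled point where the adjusted p is under 0.05. Jak1 alone is filled, Jak2 also has an interval under 0, and the intervals of the other 6 genes include 0.

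Kdr, the main receptor for VEGF-A on blood vessels (ENSMUSG00000062960, chr5:75932827-75979072), measured 8.27 and 8.66 TPM with DMSO and 6.91 and 6.49 TPM with R406. The groups did not overlap, but the difference was small, at log2 −0.30 (95% interval −0.76 to 0.17, limma adjusted p = 0.366). With DMSO, Kdr exceeded all 9 endothelial markers except Egfl7, and with R406 Egfl7 and Esam exceeded it. Pecam1 was at 0.355 and 0.115 TPM with DMSO and at 0 and 0.0194 TPM with R406, Emcn did not exceed 0.0335 TPM, and the 9 endothelial genes summed to 13.1 and 17.3 TPM with DMSO and 27.5 and 49.9 TPM with R406. Of these 5 were tested and 2 rose, Esam and Sox18. Most of the endothelial sum was Egfl7, at 13.2 and 9.61 TPM with DMSO and 31.4 and 16.0 TPM with R406. Its groups did not overlap, but it had no call (limma adjusted p = 0.191). The endothelial sum was higher and Kdr lower with R406, and the part of any endothelial cells in the Kdr value was not tested.

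Flt3, a receptor of early blood progenitors and dendritic cells (ENSMUSG00000042817, chr5:147330741-147400489), was at 0.0704 and 0.277 TPM with DMSO and at 0.917 and 0.835 TPM with R406. Both R406 values were higher, with a ratio of means of 5.04, but all 4 lay under 1 TPM. In a fit without a filter on low values its log2 difference was 0.68 (limma adjusted p = 0.106 over 27879 genes). Ret, the receptor of the GDNF family and a gene of enteric neurons (ENSMUSG00000030110, chr6:118151748-118197744), was at 0.0787 and 0.0507 TPM with DMSO and at 0.137 and 0.0444 TPM with R406, with no separation of the groups. Adora3, the adenosine A3 receptor (ENSMUSG00000000562, chr3:105904421-105908928), was at 0.0366 TPM in DMSO replicate 1 and listed at 0 in the other 3 libraries. It lies inside the gene Tmigd3 in RefSeq, so reads of the pair could be split between them, and Tmigd3 itself did not exceed 0.510 TPM. An exact 0 in this table can be a failed estimate. Beside Flt3, the 7 blood progenitor genes summed to 12.6 and 22.6 TPM with DMSO and 3.84 and 5.79 TPM with R406, with 2 of 3 tested lower (Cd34 and Spi1), and the leukocyte gene Ptprc did not exceed 0.142 TPM. Beside Ret, the 8 neural crest and enteric genes summed to 151 and 320 TPM with DMSO and 120 and 204 TPM with R406, with 1 of 6 tested higher (Ednrb).

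For comparison, Syk was as low as Lyn and Lck, at 0.958 and 1.23 TPM with DMSO and 1.74 and 1.02 TPM with R406 (log2 0.17, limma adjusted p = 0.705). Of the 10 members, 5, Jak1, Src, Jak2, Kdr and Jak3, had more RNA than Syk in every library.

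Genes around the targets were read from 9 lists of ligands, receptors, regulators and effectors. Of 96 listed genes 81 were tested, and 4 rose and 7 fell, beside 4.26% and 4.05% of all genes. The median log2 difference was −0.17. Of the 81, 20 were higher and 34 lower in R406 without overlap, beside 25.9% and 30.2% of all genes.

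Ligands of the receptor kinases were all measured, and 0 of 10 passed limma's adjusted threshold in either direction, with 1 higher and 2 lower at an unadjusted p under 0.05 (list median −0.10). The vessel growth factors Vegfb and Vegfa were the most abundant. Vegfa, the ligand of Kdr, stood at 39.9 ± 10.3 TPM with DMSO and 41.7 ± 10.7 TPM with R406, and Vegfb, which binds Flt1, at 59.0 ± 18.5 and 52.8 ± 19.5 TPM. Neither differed beyond the spread between replicates.

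Among 11 tested related receptors and co-receptors, 1 rose and 2 fell (list median 0.00). Kit, the stem cell factor receptor and a close relative of Flt3, rose from 4.30 and 4.09 TPM to 11.0 and 9.42 TPM (log2 1.11, limma adjusted p = 0.0373). The 8 mast cell genes, from a cell type that carries Kit, summed to 0.844 and 1.12 TPM with DMSO and 3.47 and 4.78 TPM with R406, and their part in the Kit value was not tested. Most of that sum was Cma1, at 0.588 and 0.644 TPM with DMSO and 3.90 and 2.36 TPM with R406 (limma adjusted p = 0.0443). Tpsb2 was at 0 and 0.0606 TPM with DMSO and at 0.380 and 0.371 TPM with R406. Hdc was at 0.144 and 0.282 TPM with DMSO and at 0.507 and 0.742 TPM with R406. Both were higher in R406 without overlap and stayed under 1 TPM. Fcer1a was listed at 0 throughout, and Cpa3, Mcpt4, Tpsab1 and Ms4a2 were listed at 0 in both R406 libraries. Csf1r, the receptor for macrophage colony-stimulating factor, fell from 3.04 and 2.62 TPM to 0.685 and 0.626 TPM (log2 −1.21, limma adjusted p = 0.0302), in libraries where the other macrophage genes fell as well. Flt4, the receptor of lymphatic vessels, fell from 2.26 and 1.40 TPM to 0.208 and 0.163 TPM (log2 −1.24, limma adjusted p = 0.0418). The fibroblast receptor Pdgfra was the most abundant, at 195 ± 0.539 and 163 ± 8.50 TPM (limma adjusted p = 0.424), followed by the semaphorin and VEGF co-receptor Nrp2 at 18.3 ± 0.434 and 23.7 ± 0.139 TPM (0.272). Without DMSO replicate 1 all 3 calls were lost, at limma adjusted p of 0.161 for Kit, 0.108 for Csf1r and 0.119 for Flt4. Kit also lost its call without DMSO replicate 2 (0.149) or R406 replicate 1 (0.0878), and Csf1r without DMSO replicate 2 (0.0534).

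Of 5 tested Src family kinases and regulators none passed limma's adjusted threshold, with 1 lower at an unadjusted p under 0.05 (list median −0.19). Ptpra, a phosphatase that activates Src, stood at 94.3 and 70.0 TPM with DMSO and 50.5 and 36.5 TPM with R406 (log2 −0.90, limma adjusted p = 0.107), and passed with quantile normalization (0.0435) or median centring (0.0474). Csk stood at 36.0 and 24.1 TPM and at 33.1 and 19.9 TPM, which overlapped. Of 7 tested Src substrates 1 fell (list median −0.37). This was Ptk2, the focal adhesion kinase FAK, from 34.0 and 36.6 TPM to 17.3 and 15.3 TPM (log2 −1.07, limma adjusted p = 0.0373). Its call was lost without any 1 library, at limma adjusted p of 0.164 and 0.179 (DMSO replicates 1 and 2), 0.0540 and 0.0804 (R406 replicates 1 and 2). The actin regulator Cttn had a log2 difference of −0.64 and the adhesion scaffold Bcar1 one of −0.36, without a call.

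Of 18 tested JAK-coupled receptor chains, 1 rose and 3 fell (list median −0.11). Il2rg, the common gamma chain that Jak3 binds, rose from 1.45 and 3.23 TPM to 13.5 and 11.7 TPM (log2 2.08, limma adjusted p = 0.0291). Csf2rb, the beta chain shared by the GM-CSF and IL-3 receptors and coupled to Jak2, fell from 3.57 and 3.80 TPM to 0.576 and 0.254 TPM (log2 −1.74, limma adjusted p = 0.0192). The mouse has a near-identical copy, Csf2rb2, so reads could be split between the pair and the Csf2rb value is uncertain. Osmr, the oncostatin M receptor, which pairs with gp130 and Jak1, fell from 22.9 and 24.1 TPM to 8.82 and 9.40 TPM (log2 −1.28, limma adjusted p = 0.0257). Il13ra1, a chain of the IL-13 receptor, fell from 1.78 and 2.05 TPM to 0.379 and 0.503 TPM (log2 −1.02, limma adjusted p = 0.0424). Csf2rb kept its call in every leave-out, beside the macrophage sum that was lower in both R406 libraries, and the part of macrophages in it was not tested. Il2rg lost its call without DMSO replicate 1 (limma adjusted p = 0.0641). Osmr lost it without DMSO replicate 1 or 2 (0.111 and 0.102). Il13ra1 lost it without DMSO replicate 1 or 2 or R406 replicate 1 (0.114, 0.117 and 0.0821), and with median centring (0.0587). The abundant chains Il4ra and Il11ra1 had log2 differences of −1.44 and −0.12 with limma adjusted p of 0.0669 and 0.854, and Il4ra passed without R406 replicate 1 (0.0243), with quantile normalization (0.0241), with median centring (0.0269) and without ribosomal protein and mitochondrial genes (0.0355).

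Of 6 tested JAK-coupled cytokines, none passed limma's adjusted threshold, with 2 higher and 3 lower at an unadjusted p under 0.05 (list median −0.48). Lif, which keeps mouse stem cells undifferentiated, stood at 14.6 and 12.1 TPM and at 23.2 and 18.0 TPM (log2 0.59, limma adjusted p = 0.178), and Il6 at 5.80 and 8.55 TPM and at 1.86 and 3.98 TPM (log2 −1.09, 0.128). Neither pair of groups overlapped. Il6 passed without R406 replicate 2 (limma adjusted p = 0.0256).

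Of 7 tested STAT factors and Tyk2, 1 fell (list median 0.09). Stat5a, which acts downstream of Jak2 and Jak3, fell from 16.2 and 15.8 TPM to 6.20 and 4.12 TPM (log2 −1.49, limma adjusted p = 0.0319), a call lost without DMSO replicate 1 (0.107) or 2 (0.0727). Stat3, the factor that Lif signals through, stood at 45.9 and 43.0 TPM and at 33.1 and 26.5 TPM (log2 −0.57, limma adjusted p = 0.154), and Stat6 at log2 0.09. Of 10 tested feedback and target genes, 1 rose (list median −0.12). This was Irf9, the DNA-binding subunit of the interferon-stimulated complex, from 7.57 and 6.84 TPM to 16.5 and 15.7 TPM (log2 1.06, limma adjusted p = 0.0373). Its call was lost without any 1 library, at limma adjusted p of 0.161 and 0.180 (DMSO replicates 1 and 2), 0.0847 and 0.0547 (R406 replicates 1 and 2). The feedback inhibitor Socs3 stood at 154 and 107 TPM and at 118 and 68.1 TPM, and the kinase Pim1, a common STAT target, at 60.6 and 45.5 TPM and at 59.9 and 44.6 TPM, with groups that overlapped in both.

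Among 7 tested adenosine genes 1 rose (list median −0.03). Slc29a1, a transporter that moves adenosine across the membrane, rose from 5.98 and 6.19 TPM to 31.2 and 16.1 TPM (log2 1.73, limma adjusted p = 0.0482). The call did not hold without DMSO replicate 1 (0.116) or 2 (0.0832), nor with the filter at a mean of 5 TPM (0.0613). Adora2b, named after its values were seen, was the abundant adenosine receptor where Adora3 was near 0, with 66.8 and 57.6 TPM against 46.9 and 42.3 TPM (log2 −0.47, limma adjusted p = 0.202). The adenosine-removing enzymes Ada and Adk had log2 differences of −0.77 and −0.03, with limma adjusted p of 0.164 and 0.944.

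**Figure D4:**
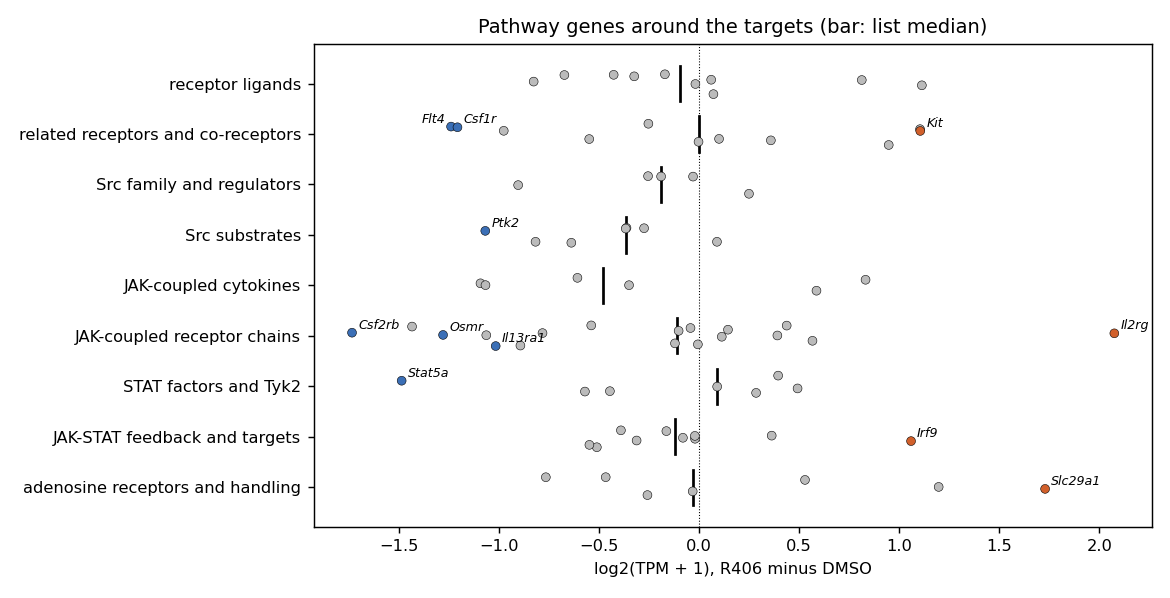
Difference in log2(TPM + 1) between R406 and DMSO for the 81 tested genes of the 9 pathway lists (points, spread vertically at random for legibility), with list medians as bars. The 4 orange points are the genes that rose, the 7 blue points are the genes that fell, and grey points did not pass the test.

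By the shape of the profile over the 4 libraries, the genes nearest to Jak1 were B4galt1 and Lpin2, with root mean square distances of 0.00938 and 0.0169 in centred log2(TPM + 1). Those nearest to Jak2 were Rybp and Net1 (0.0203 and 0.0276), to Src Cbr3 and Sh3bgrl3 (0.0159 each), to Jak3 Osgep and Mecr (0.0113 and 0.0164), to Lck Sap25 and Etl4 (0.0269 and 0.0296), to Lyn Naf1 and Nit1 (0.0404 and 0.0498) and to Kdr Ammecr1l and Dhx15 (0.00934 and 0.0107). Profiles of 4 values are easily matched: between 38 genes (for Lck) and 854 genes (for Kdr) lay within 0.1 of a member.

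Flag-Nfatc1 peaks lay within 10 kb of 6 of the 10 members in the DMSO list and of 8 in the R406 list, where 43.8% and 59.1% of protein-coding genes had such a peak. The DMSO list held 21246 peaks and the R406 list 36885, and with 1 library per condition there was no test of any difference between them. The fold enrichment of a peak is the authors' own value, and the median over each list was 8.74 and 8.86. Flt3 and Ret had no peak in either list within that distance, and Lyn and Jak3 had them in the R406 list alone. The 4 peaks at Jak3 had summits at positions −8799, −4837, −3792 and 5341 from its start site, with folds of 8.22, 4.64, 5.93 and 5.69. Those at −8799 and −4837 lay inside the gene Unc13a, and only the one at 5341 lay inside Jak3.

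Jak1 had a peak over its start site in both lists. With DMSO it spanned chr4:101265039-101265312 with a fold of 5.83 and a −log10 q of 5.52, and with R406 chr4:101265149-101265590 with a fold of 10.1 and a −log10 q of 14.6. They covered 89 and 250 bases of the sequence printed for Jak1, which does not hold the GGAAA core. A promoter window was under a peak in 21.0% of protein-coding genes in the DMSO list and 30.9% in the R406 list. A second Jak1 peak, inside the gene and in the R406 list alone, had a fold of 12.7.

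At Jak2 a DMSO peak (chr19:29251287-29251767, fold 6.56) had its summit at position −498 from the start site and covered 215 bases of the printed sequence, the single core included. No R406 peak touched that window. The nearest R406 peak (fold 6.33) had its summit 1479 bases after the start site. A further peak inside the gene was shared, with a fold of 11.7 in the DMSO list and 5.69 in the R406 list.

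At Src a shared peak lay inside the gene (chr2:157457336-157458010 with DMSO), with a fold of 10.2 and, with R406, 15.8. The R406 list had 2 more peaks within reach of Src, 1 of them beyond its end. At Lck the DMSO list had a weak peak, fold 4.82, with its summit 892 bases after the upstream start site, and the R406 list had a peak beyond the 3′ end, fold 9.49. At Lyn the R406 peak (chr4:3678281-3678579, fold 7.59) lay 222 bases inside the lower end of the gene. Kdr had a shared peak beyond its 3′ end, with folds of 5.83 and 7.59. The strong shared peak near Adora3, with folds of 21.9 and 20.9, had its summit inside Tmigd3, at position −10250 from the Adora3 start site. A further peak near Adora3, in the R406 list alone and with a fold of 10.8, had its summit at position 13576, also inside Tmigd3.

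**Figure D5:**
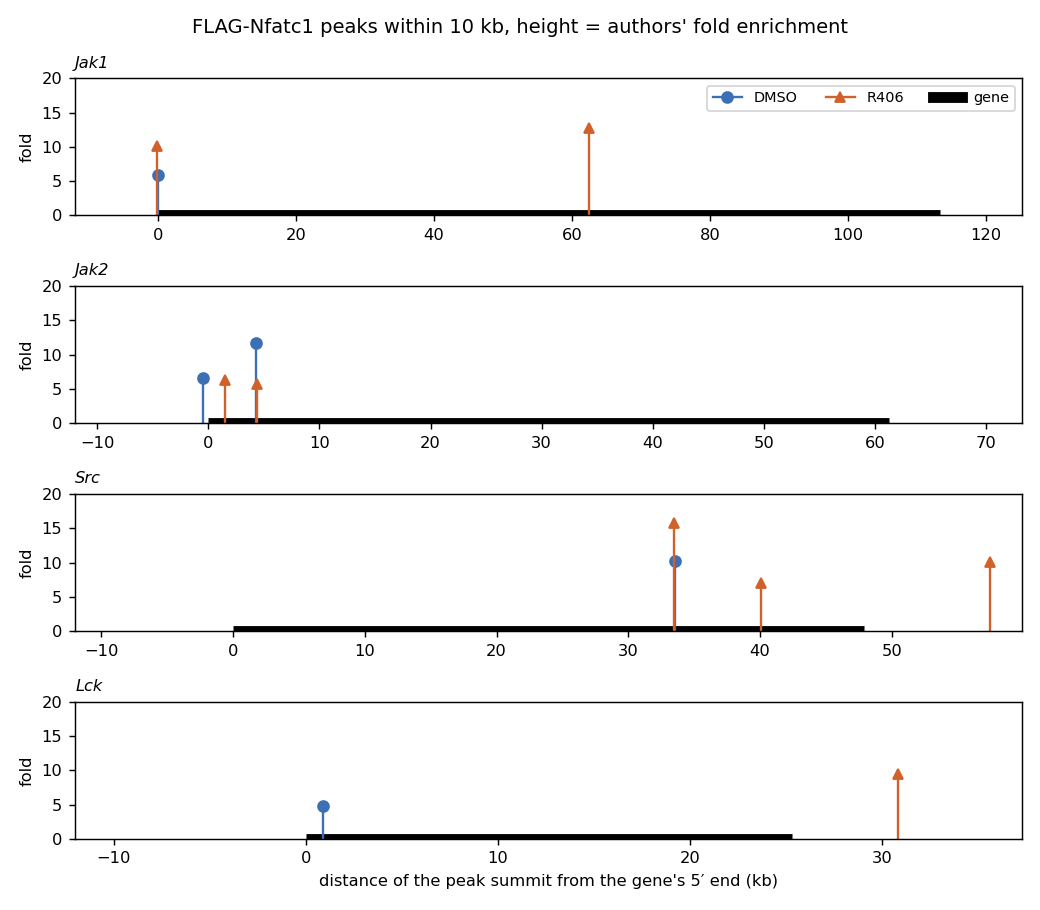
Flag-Nfatc1 peaks within 10 kb of Jak1, Jak2, Src and Lck, placed by the distance of the summit from the gene's 5′ end in kb (black bar: gene), with height giving the authors' fold enrichment in the DMSO list (circles) and the R406 list (triangles). Jak1 has a peak of each list at its 5′ end, Jak2 has a DMSO peak before its start, and the Src peaks lie toward its 3′ side.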

How the data were processed

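For RNA-seq, the authors deposited TPM per gene in 1 table and in single files with equal values. HISAT2 2.1.0, StringTie 2.0 and the mm10 build are named per the submitters' processing notes, without roles. Per the labels' protocols, NEBNext Ultra libraries of total RNA were made, a kit that does not mark strand. For CUT&Tag the authors deposited 1 peak list per library, with a fold enrichment (ratio), −log10 p- and q-values and a score, and Bowtie2 2.2.5 and MACS2 2.1.2 are named per the submitters' processing notes. No source used here gives the control library or call limit. TPM keeps no depth, so the reads behind a value are unknown.

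Genes averaging 1 TPM or more were compared in limma 3.58.1 (R 4.3.3), using log2(TPM + 1) and a mean-dependent prior. Two-sided p-values were adjusted by Benjamini-Hochberg over 13929 genes. The fit was also run on simulated data, with independent libraries and planted differences larger than those of the members, so it does not vouch for these calls. Symbols came from the gene table (53620 of 53715 IDs). Members and lists were chosen with earlier results of these data known. Named were all members, Syk, list genes past the threshold, the 2 most abundant tested genes per list, and the 2 nearest profiles per member. Peaks were joined to RefSeq genes (GRCm38.p6, the build also called mm10) widened by 10 kb, by at least 1 base. Alternatives covered the pseudocount, filter, scaling, trend, replicate block, left-out libraries, windows and peak limits.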

Additional observations from a re-analysis of the deposited data

How the results depend on the processing

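Members that rose numbered 0 under every alternative run. Members that fell numbered 1 with the other pseudocount, the filter at 5 TPM, either scaling, no trend, and without ribosomal protein and mitochondrial genes (chosen after seeing the data). They numbered 0 when low genes were kept (no filter, 27879 genes tested), 0 to 0 when 1 library was left out, and 3 with the replicate block (Jak1, Jak2 and Src). With no filter, 0 genes rose and 0 fell over all genes (limma, 5394 at an unadjusted p under 0.05), and 0 pathway genes rose and 0 fell. Over all genes 593 rose and 564 fell. With the filter at 5 TPM these were 311 and 332, with fewer genes tested, and with the replicate block 2128 and 2535. Median centring gave 933 higher, quantile normalization 850 lower, and leaving out ribosomal protein and mitochondrial genes 939 higher. Leaving out 1 library gave 159 to 914 higher and 158 to 574 lower. Pathway genes numbered 10 higher and 24 lower with the replicate block, 3 lower with the filter at 5 TPM and 11 lower with quantile normalization. With 1 library left out they numbered 0 to 7 higher and 1 to 7 lower. The cause was not tested. A group left with 1 library is assumed to vary like the other.

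Same-numbered libraries deviated from their group means with a correlation of 0.556 across genes, but the labels tie no number to a common culture and there are 2 pairs, so the pairing was not used.

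The sign turned for values without a call: Pim1 became 0.0223 with median centring, 0.0416 with quantile normalization and 0.0280 without ribosomal protein and mitochondrial genes, and Adk 0.0114, 0.0341 and 0.0174. With 1 library left out, log2 differences ran from −0.34 to 0.0371 for Lyn, −0.10 to 0.70 for Jak3, −0.0536 to 0.39 for Syk, −0.55 to 0.21 for Vegfb, −0.20 to 0.32 for Vegfa, −0.54 to 0.16 for Csk, −0.80 to 0.0690 for Bcar1, −0.43 to 0.19 for Il11ra1, −0.23 to 0.19 for Pim1 and −0.22 to 0.15 for Adk. Members with an R406 peak numbered 5 when only the gene body counted, and 8 or 10 under the other alternatives. For DMSO peaks the number was 4 to 8. The share over all protein-coding genes was taken only for the main 10 kb window. These other counts therefore have no background beside them and say nothing particular about the members.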
